A study of Mus musculus with 8 samples.

Results

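A group of 39 genes was measured higher in every array of cells carrying a hairpin against Irf7 than in any control array, out of 19505 named genes on the array. They were chosen by a rule on the deposited log2 values and covered 40 probe sets, because Plppr2 has 2. A probe set was taken if it had exactly 1 gene symbol, if its lowest value in the 4 shIRF7 arrays exceeded its highest value in the 4 control arrays, if the means differed by at least 1, and if the shIRF7 mean was at least 6. All 4 shIRF7 values lay above all 4 control values in 506 of 19572 probe sets (2.59%). Of these 49 also met the minimum difference and 42 the minimum level, and 2 of the 42 (Grem1 and Dlx5) were left out by name. Since the shIRF7 and control values themselves chose the genes, their differences are given as a description, with no test.

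The cells were mesenchymal stromal cells of the inguinal fat pad of male FVB mice aged 12 months, grown in serum-containing high-glucose DMEM with antibiotics and transduced with the lentiviral plasmid pLKO.1. The 2 empty vector arrays hold cells with the plasmid alone, the 2 scramble arrays cells with a scrambled hairpin, and the 4 shIRF7 arrays cells with a hairpin against Irf7, so every group carries the plasmid. The series describes a single hairpin against Irf7, so loss of Irf7 and other actions of that hairpin cannot be told apart. The labels do not say whether replicates came from separate mice, cultures or infections, so a p-value here reflects only how far these arrays differ, possibly for technical reasons, and their number limits the precision.

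IRF7 is a transcription factor that, once phosphorylated, enters the nucleus and switches on type I interferon genes and, with other interferon regulatory factors, many interferon-stimulated genes. Mesenchymal stromal cells of fat are adherent fibroblast-like cells that deposit collagen matrix and can become adipocytes. Sorted by what their products are known to do, 7 of the 39 genes belong to signalling and transcription, 6 to lipid and small-molecule metabolism, 5 to lysosomes, 5 to mitochondria, 5 to cilia and microtubules, 4 to glycosylation and matrix, 4 to actin and small GTPases and 2 to chromosomes, and 1 (Tmem205) was placed in none of these.

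The targeted gene was low in all 4 shIRF7 arrays. Against 9.55 and 9.62 with the empty vector, and 9.56 and 9.76 with the scrambled hairpin, Irf7 stood at 4.42, 5.66, 6.47 and 6.79 in shIRF7 arrays 1 to 4. Of 12 measured stromal markers, 6 (Cd34, Cd44, Col1a1, Col1a2, Eng and Pdgfrb) exceeded the 95th percentile of the negative control probe sets, a log2 value of 8.45, on every array. No measured marker of macrophages, lymphocytes, endothelium, epithelium, mesothelium or skeletal muscle did (0 of 8, 7, 9, 8, 4 and 8). Of 9 measured adipocyte markers 2 did (Lpl and Pnpla2), and of 5 Schwann and neural markers 1 did (Ncam1). The summed adipocyte markers gave log2 values of 13.3 to 14.3 in shIRF7 and 13.2 to 15.2 in the controls. Of these 9 markers 1 lay above all controls, against 2.58% of all genes. The summed smooth muscle markers, 2 of 9 of which (Acta2 and Cnn1) exceeded that level on every array, gave log2 values of 18.80 and 18.09 in shIRF7 arrays 1 and 4, 16.36 and 16.30 in arrays 2 and 3, and 17.78 to 18.29 in the controls. The summed skeletal muscle markers gave 12.21 in shIRF7 array 1, 9.77 in array 4 and 7.61 to 9.34 on the other arrays. The summed stromal markers gave 17.25 to 17.56 in shIRF7 and 17.81 to 18.51 in the controls. Below all controls lay 2 of the 12 stromal, 1 of the 8 epithelial and 1 of the 4 mesothelial markers, against 2.80% of all genes. The part of these levels in the results below was not tested. In bulk RNA fewer cells of a type and less RNA per cell cannot be told apart. The closest pairs of arrays were shIRF7 2 and 3, and empty vector 2 and scramble 2 (SD of their difference over genes 0.323 and 0.326). The median of the negative control probe sets was 4.56 and 4.545 in shIRF7 arrays 2 and 3. It was 4.18 and 4.33 in shIRF7 arrays 1 and 4. The labels do not say whether such arrays share a culture or a batch, and this was not tested. Below, n = 4 therefore counts arrays.

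**Figure D1:**
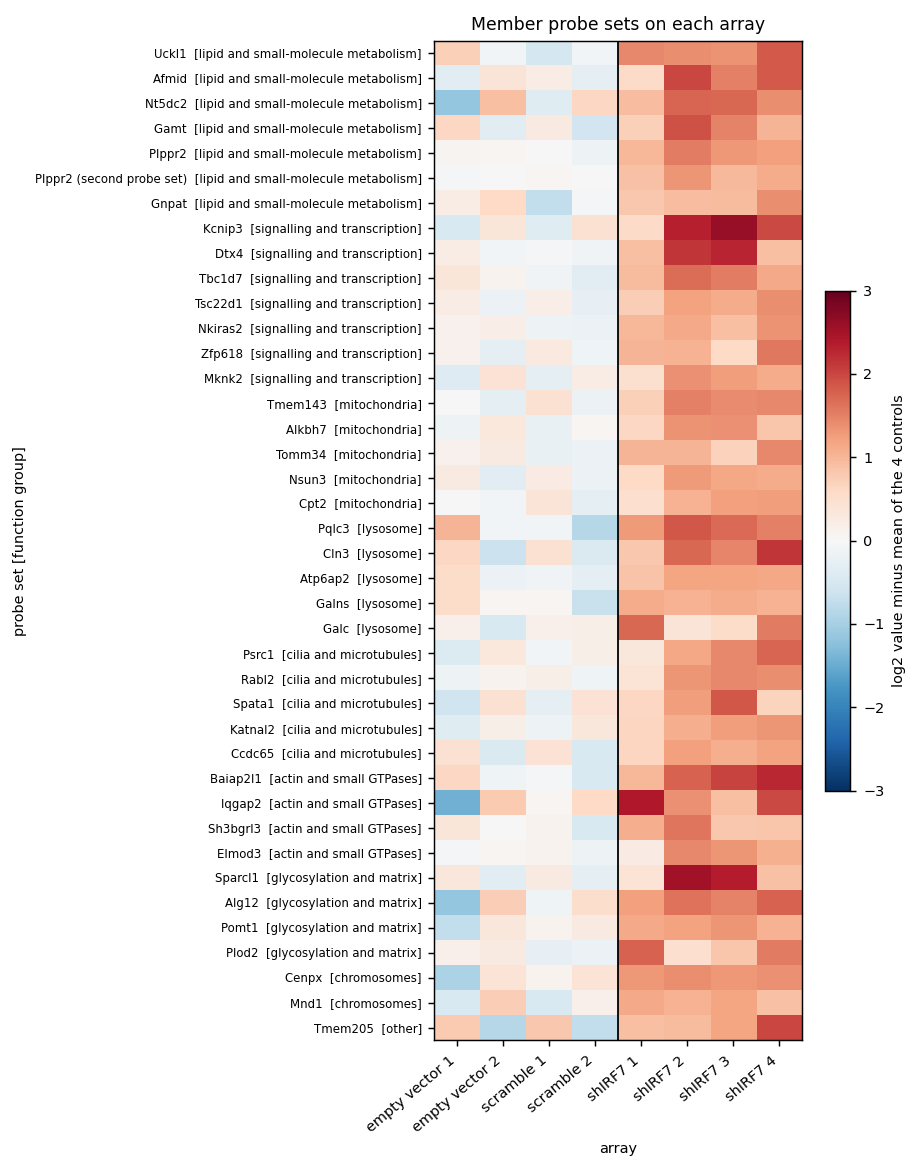
Log2 value of each of the 40 probe sets (rows, with the function group in brackets) minus its mean over the 4 control arrays, on each of the 8 arrays (columns); red is higher and blue lower than the control mean. All shIRF7 cells are red because the rule required it, and the first shIRF7 column is the palest, with a median of 0.89 against 1.33, 1.30 and 1.36 in the other three.

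Over the 40 probe sets the mean shIRF7 value exceeded the mean control value by a median of 1.15 (range 1.00 to 1.88) on the log2 scale, which is 2.22-fold (2.01 to 3.67-fold). The median over all named probe sets was 0.00. The SE of these differences in a limma fit with 1 mean per group had a median of 0.27 (0.15 to 0.52). The distance between the lowest shIRF7 and the highest control value, called the gap here, had a median of 0.26. It was at least 0.5 in 9 probe sets, under 0.2 in 15 and under 0.1 in 4. In 15 probe sets, then, at least 1 shIRF7 array lay within 0.2 of a control array.

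The shIRF7 arrays did not contribute equally. Array 1 was the lowest of the 4 in 28 of the 40 probe sets (70.0%), array 3 in 6, and arrays 2 and 4 in 3 each. Among the 323 other named probe sets that lay above all controls at a mean of at least 6, array 1 was lowest in 133 (41.2%). The highest shIRF7 value was in array 2 for 15, array 4 for 13, array 3 for 9 and array 1 for 3 probe sets. Among the controls the highest value was in empty vector 1 for 15, empty vector 2 for 14, scramble 1 for 7 and scramble 2 for 4.

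The genes with the widest gaps are described first. Plppr2 encodes a membrane protein related to the phospholipid phosphatases, a family best known for lipid signalling in neurons. It measured 10.19 and 10.17 in empty vector, 10.10 and 9.95 in scramble, and 11.10, 11.63, 11.41 and 11.32 in shIRF7 (controls 10.10 ± 0.11, shIRF7 11.36 ± 0.22, SD, n = 4 each). The second Plppr2 probe set gave 10.03, 10.09, 10.14 and 10.07 in the controls and 10.96, 11.41, 11.05 and 11.20 in shIRF7. The 4 controls were nearly level in both sets, array 2 was the highest of the shIRF7 arrays in both, and the gaps were 0.91 and 0.82. The differences of 1.26 and 1.07 come from probe sets of the same gene and are not independent of each other.

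The RefSeq promoter table (assembly GRCm38.p6) holds 33 of the 39 genes. For Plppr2 it places 250 bases before a transcription start at chr9:21936760-21937009 on the plus strand, printed 5′ to 3′ because this gene had the widest gap, with capitals marking TTTATA, the reverse complement of the TATA box motif TATAAA, which ends 184 bases before the start.
Plppr2: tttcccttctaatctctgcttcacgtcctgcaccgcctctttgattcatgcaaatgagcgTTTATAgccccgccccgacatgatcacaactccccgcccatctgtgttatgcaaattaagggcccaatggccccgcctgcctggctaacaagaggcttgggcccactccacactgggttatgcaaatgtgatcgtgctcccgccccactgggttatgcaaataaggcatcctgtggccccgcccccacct

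Cenpx encodes a histone-fold protein that pairs with CENP-S at centromeres and in the Fanconi anaemia DNA repair complex. Its values were 12.17 and 13.53 in empty vector, 13.22 and 13.54 in scramble, and 14.41, 14.52, 14.41 and 14.49 in shIRF7 (controls 13.11 ± 0.65, shIRF7 14.46 ± 0.05, SD, n = 4 each). The shIRF7 arrays were almost identical, empty vector 1 stood low among the controls, and the gap was 0.87. Cenpx was the only one of the 33 genes whose promoter held the core of the interferon-stimulated response element that interferon regulatory factors bind, GAAA and GAAA with any 2 bases between. Its 250 bases before a start, at chr11:120713809-120714058 on the minus strand, follow 5′ to 3′ with that match in capitals, ending 60 bases before the start.
Cenpx: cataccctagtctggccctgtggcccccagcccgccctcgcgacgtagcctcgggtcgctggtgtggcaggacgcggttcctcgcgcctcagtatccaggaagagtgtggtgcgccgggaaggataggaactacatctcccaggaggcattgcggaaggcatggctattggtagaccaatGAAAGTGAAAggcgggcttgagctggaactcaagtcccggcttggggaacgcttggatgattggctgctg

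Nkiras2, a Ras-like protein that restrains NF-κB activation by holding back breakdown of its inhibitor, measured 11.66 and 11.73 in empty vector, 11.39 and 11.37 in scramble, and 12.52, 12.66, 12.43 and 12.89 in shIRF7. Replicates of each control lay close together, both empty vector arrays above both scramble arrays, and the gap was 0.71. Its difference of 1.09 had the joint smallest SE of the 40 probe sets (0.15). Of 13 measured genes listed as inhibitors of NF-κB, Nkiras2 was the only one above all controls (7.69%, against 2.58% of all genes). The list was built around Nkiras2, which was chosen for lying above them, so that share was set in advance. The median difference over the 13 was 0.14.

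Pomt1, the transferase that starts O-mannosylation of dystroglycan, a receptor for matrix laminin, measured 10.33 and 11.41 in empty vector, 11.17 and 11.34 in scramble, and 12.20, 12.27, 12.40 and 12.12 in shIRF7. Its shIRF7 values spanned little, empty vector 1 was the low control, and the gap was 0.70. Uckl1, a uridine-cytidine kinase family protein of pyrimidine salvage, measured 7.04 and 6.24 in empty vector, 5.79 and 6.24 in scramble, and 7.76, 7.72, 7.67 and 8.17 in shIRF7. Here empty vector 1 was the high control, and the gap was 0.62. Uckl1 lay below the negative control level of 8.45 on all 8 arrays. Tsc22d1, a leucine zipper protein first found as a TGF-β-stimulated gene, measured 15.26 and 14.87 in empty vector, 15.22 and 14.78 in scramble, and 15.77, 16.23, 16.14 and 16.42 in shIRF7, with a gap of 0.51 and array 1 the lowest of the shIRF7 arrays. The difference of Tsc22d1 was 1.11.

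**Figure D2:**
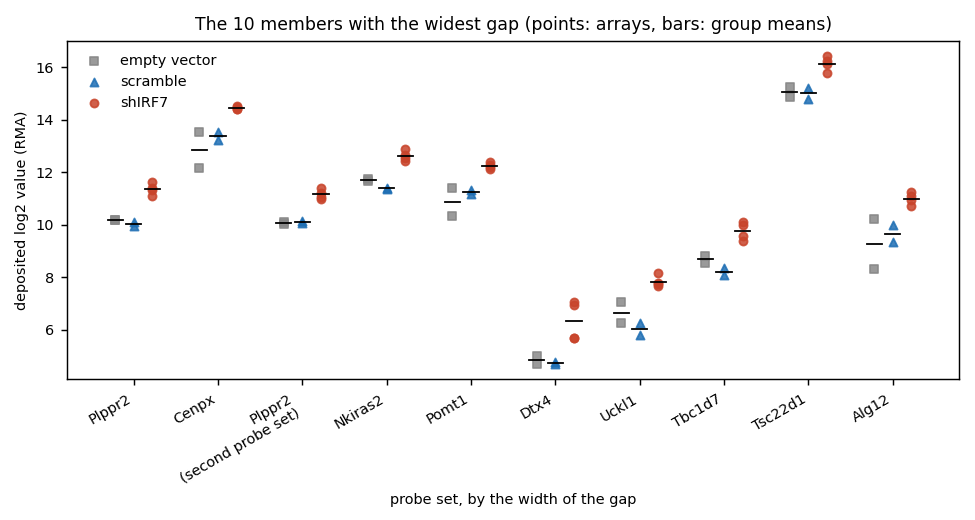
Deposited log2 values (vertical axis) of the 10 probe sets with the widest gap (horizontal axis, widest at left): squares are empty vector, triangles scramble and circles shIRF7 arrays, and bars are group means. No circle overlaps a control point, as the rule required, and the gap runs from 0.91 in Plppr2 down to 0.50 in Alg12.

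Among genes of signalling and transcription, the difference ran from 1.06 to 1.88. Kcnip3, a calcium sensor that modulates potassium channels and, as DREAM, represses transcription, had the largest difference of all. It measured 7.37 and 8.19 in empty vector, 7.47 and 8.27 in scramble, and 8.40, 10.17, 10.44 and 9.80 in shIRF7 (controls 7.83 ± 0.47, shIRF7 9.70 ± 0.90, SD, n = 4 each). Array 1 lay just above scramble 2, so the gap was 0.13 although the difference was 1.88 (SE 0.46). Dtx4, a Deltex family ubiquitin ligase of Notch and innate immune signalling, measured 5.01 and 4.71 in empty vector, 4.76 and 4.69 in scramble, and 5.70, 6.93, 7.07 and 5.68 in shIRF7. Arrays 2 and 3 were the high ones, and every Dtx4 value lay below the negative control level of 8.45, so how far these follow RNA was not tested.

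Tbc1d7 is a subunit of the TSC complex, which restrains the growth kinase mTORC1 at the lysosome. It measured 8.81 and 8.55 in empty vector, 8.34 and 8.10 in scramble, and 9.39, 10.12, 9.98 and 9.57 in shIRF7, a gap of 0.59. Arrays 2 and 3 were again the highest. Of 27 measured genes of the TSC complex and of lysosomal mTORC1 control, Tbc1d7 alone lay above all controls (3.7%, against 2.58% of all genes). The list was built around Tbc1d7, so that share was set in advance. Of the 27, 0 lay below (against 2.80% of all genes), and the median difference was 0.11. Zfp618, a zinc finger protein, and Mknk2, a kinase of the cap-binding factor eIF4E, differed by 1.06 each, with gaps of 0.29 and 0.05. Of 12 measured genes of eIF4E kinases, the cap-binding complex and its regulators, Mknk2 was the 1 above all controls (8.33%, against 2.58% of all genes). That share too was set by the choice of Mknk2. Of the 12, 2 lay below (16.67%, against 2.80%). They were Eif4e2 at -0.35 and Eif4ebp1, which encodes an eIF4E-binding protein, at -0.73.

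Genes grouped under lysosomes differed by 1.06 to 1.59, with Pqlc3, placed here by its protein family, at the upper end. Cln3, a membrane protein of lysosomes whose loss causes juvenile Batten disease, measured 7.38 and 6.10 in empty vector, 7.21 and 6.33 in scramble, and 7.57, 8.48, 8.22 and 8.89 in shIRF7. Replicate 1 of each control lay above replicate 2, array 1 only just cleared them, and the gap was 0.19. Pqlc3, a PQ-loop membrane protein of the family that holds lysosomal amino acid exporters, measured 12.27 and 11.16 in empty vector, 11.15 and 10.38 in scramble, and 12.52, 13.11, 12.94 and 12.75 in shIRF7. Its shIRF7 arrays were close to each other, and the controls were spread by more than 1.

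Atp6ap2, the prorenin receptor and an accessory subunit of the vacuolar proton pump that acidifies lysosomes, ranged from 10.77 to 11.62 in the controls and from 11.93 to 12.25 in shIRF7. Galns, a sulfatase that degrades keratan sulfate, ranged from 6.84 to 8.04 in the controls and from 8.54 to 8.62 in shIRF7, the narrowest shIRF7 spread of all (SD 0.04). Galc, which removes galactose from galactosylceramide, ranged from 5.02 to 5.64 in the controls and from 5.86 to 7.20 in shIRF7. In Galc it was arrays 1 and 4 that were high, the reverse of Dtx4.

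Of 60 measured lysosomal enzymes and membrane proteins, 4 lay above all controls (6.67%, against 2.58% of all genes), 3 of them Cln3, Galc and Galns. The other was Hyal2 at 0.31, with a gap of 0.009. Of the 60, 2 lay below (3.33%, against 2.80%), and the median difference was 0.29. The 2 below were Lamp1 and Scarb2, abundant lysosomal membrane glycoproteins, at -1.32 and -1.49. Of 25 measured genes of the vacuolar proton pump, 5 lay above all controls and 0 below. Besides Atp6ap2 they were the pump genes Atp6ap1 at 0.38, Atp6v0a1 at 0.64, Atp6v1c1 at 0.50 and Atp6v1g2 at 0.82, the last below 8.45 on all 8 arrays. These lists, like the others built around the 39 genes, were drawn up once the genes were known. Each holds some of them, which lay above all controls by the rule, so its share above was at least partly set in advance. It was set wholly where no other gene of the list lay above. That was so for NF-κB inhibitors, the TSC list, eIF4E kinases, dystroglycan O-mannosylation and the SPARC family. The lists were counted and not tested.

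CACGTG, the palindromic E-box that MYC and the TFEB family of lysosomal gene regulators bind, was found in promoters of 7 of the 33 genes (Alkbh7, Ccdc65, Cln3, Gnpat, Pomt1, Tbc1d7 and Tsc22d1). It was in 7 of their 48 promoters (14.6%) and in 1552 of all 19143 in the table (8.11%), in a window of 250 bases before to 50 after each start. Among the 5 genes grouped under lysosomes it was found only in Cln3, and among the 4 of glycosylation and matrix only in Pomt1. The promoters of Cln3 (chr7:126583237-126583486, minus strand) and Pomt1 (chr2:32236390-32236639, plus strand) are printed 5′ to 3′, 250 bases up to the start. CACGTG is in capitals, and Cln3 holds 2 copies.
Cln3: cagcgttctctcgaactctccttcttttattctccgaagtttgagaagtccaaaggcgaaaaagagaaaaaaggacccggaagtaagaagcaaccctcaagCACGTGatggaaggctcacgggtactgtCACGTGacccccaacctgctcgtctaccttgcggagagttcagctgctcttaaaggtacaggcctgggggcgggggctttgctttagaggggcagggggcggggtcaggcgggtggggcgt
Pomt1: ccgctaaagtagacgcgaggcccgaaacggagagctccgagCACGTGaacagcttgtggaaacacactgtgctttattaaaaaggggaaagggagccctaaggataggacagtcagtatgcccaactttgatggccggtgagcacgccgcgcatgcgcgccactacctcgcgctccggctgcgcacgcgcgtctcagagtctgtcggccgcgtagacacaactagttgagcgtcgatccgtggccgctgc

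On both strands of the same 48 promoters, the core of the interferon-stimulated response element was found in 2 (4.17%, both of Cenpx) against 3.35% of all promoters, and TATAAA in 4 (8.33%) against 12.3%. The general E-box CANNTG, which includes CACGTG, was in 34 (70.8%) against 68.9%. The AP-1 motif TGANTCA was in 5 (10.4%) against 7.15%, the TEAD motif CATTCC in 5 (10.4%) against 13.4%, and the cyclic AMP response element TGACGTCA in 0 against 2.31%. A match is a run of letters and not a shown binding site. CACGTG was added to the search after the genes were known.

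Genes of glycosylation and matrix differed by 1.16 to 1.54. Sparcl1, a secreted relative of SPARC that modulates cell adhesion to matrix, measured 10.82 and 10.16 in empty vector, 10.77 and 10.21 in scramble, and 10.91, 13.003, 12.84 and 11.37 in shIRF7 (controls 10.49 ± 0.35, shIRF7 12.03 ± 1.05, SD, n = 4 each). Arrays 2 and 3 carried the difference, array 1 lay 0.09 above empty vector 1, and the shIRF7 SD was the largest of the 40 probe sets. The other 7 measured genes of the SPARC family lay neither above nor below all controls.

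Alg12, a mannosyltransferase that builds the N-glycan precursor in the endoplasmic reticulum, measured 8.31 and 10.20 in empty vector, 9.33 and 9.997 in scramble, and 10.70, 11.08, 10.96 and 11.23 in shIRF7. The shIRF7 arrays lay together and replicate 1 of each control lay below replicate 2. Of 26 measured genes of N-glycan assembly, Alg12 and Alg2 (0.46) lay above all controls (7.69%, against 2.58% of all genes). Ddost, a subunit of the transferase that attaches the glycan to proteins, lay below at -1.56 (3.85%, against 2.80%). Of 17 genes listed for O-mannosylation of dystroglycan 9 were measured. The 9 include Dag1, the gene of dystroglycan itself, and Pgap6, which is not an enzyme of that pathway. Pomt1, around which the list was built, was the 1 above all controls (11.1%, against 2.58% of all genes).

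Plod2 hydroxylates lysines in collagen telopeptides, which sets the type of collagen cross-link. It measured 10.10 and 10.23 in empty vector, 9.71 and 9.77 in scramble, and 11.71, 10.45, 10.79 and 11.51 in shIRF7, with arrays 1 and 4 high. Of 22 measured genes of collagen modification and folding, 5 lay above all controls (22.7%, against 2.58% of all genes). Besides Plod2 they were Plod1 at 0.91, P4ha3 at 0.97, P3h3 at 0.30 and Fkbp14 at 0.46. The collagen chaperone gene Serpinh1 (-0.52) and the cross-linking oxidase gene Loxl4 (-1.06) lay below (9.09%, against 2.80% of all genes). The median over the 22 was 0.06.

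Metabolic genes outside the mitochondria differed by 1.02 to 1.502. Afmid, the arylformamidase of tryptophan breakdown, measured 6.496 and 7.21 in empty vector, 7.04 and 6.56 in scramble, and 7.40, 8.83, 8.33 and 8.67 in shIRF7, with array 1 well below the others. Gamt, which makes creatine from guanidinoacetate, measured 10.71 and 9.76 in empty vector, 10.37 and 9.52 in scramble, and 10.81, 11.99, 11.57 and 11.11 in shIRF7. Array 1 lay 0.10 above empty vector 1. Gatm, which makes the guanidinoacetate that Gamt uses, lay below all controls (-1.02), but under the negative control level of 8.45 on all 8 arrays.

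Nt5dc2, a nucleotidase-domain protein, measured 11.64 and 13.70 in empty vector, 12.45 and 13.43 in scramble, and 13.74, 14.54, 14.53 and 14.20 in shIRF7. Its controls were spread by over 2 and the gap was 0.04. Gnpat, the peroxisomal enzyme that starts ether lipid synthesis, ranged from 9.80 to 11.14 in the controls and from 11.36 to 11.93 in shIRF7. Of 28 measured genes of peroxisomes and ether lipid synthesis, 2 lay above all controls (7.14%, against 2.58% of all genes). Of the 28, 1 lay below (3.57%, against 2.80%), and the median was 0.05.

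Mitochondrial genes differed by 1.00 to 1.27. Tmem143, a mitochondrial membrane protein of unsettled function, measured 7.52 and 7.25 in empty vector, 7.99 and 7.37 in scramble, and 8.26, 9.05, 8.94 and 8.97 in shIRF7, where arrays 2 to 4 lay together above array 1. Alkbh7, a mitochondrial dioxygenase, Tomm34, a co-chaperone of protein import, and Nsun3, which modifies mitochondrial methionine tRNA, differed by 1.04 each with gaps of 0.32, 0.42 and 0.33. Cpt2 releases long-chain fatty acids from carnitine inside mitochondria for oxidation. It ranged from 5.75 to 6.39 in the controls and from 6.53 to 7.26 in shIRF7, and had the smallest difference admitted.

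Of 20 measured genes of the carnitine shuttle and fatty acid oxidation, 4 lay above all controls (Cpt2, Crat at 0.48, Hadhb at 0.45 and Eci1 at 0.41) and 0 below, with a median of 0.38. Oxidative phosphorylation genes were not among the 39. Of 95 measured, 18 lay above all controls (18.9%, against 2.58% of all genes) and 0 below (against 2.80%), with a median difference of 0.21.

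Genes of cilia and microtubules differed by 1.05 to 1.17, and all 5 were lowest in shIRF7 array 1. Psrc1, a spindle microtubule protein and p53 target, measured 7.14 and 7.87 in empty vector, 7.48 and 7.74 in scramble, and 7.90, 8.72, 9.01 and 9.30 in shIRF7. Its gap of 0.03 was the narrowest of all. Rabl2, a Rab-like GTPase of cilia and sperm tails, ranged from 9.59 to 9.90 in the controls and lay at 10.13 in array 1 and at 11.05 to 11.18 in arrays 2 to 4. Spata1, a spermatogenesis-associated protein, had a gap of 0.18. Katnal2, a katanin-family protein of microtubule severing, and Ccdc65, of the nexin-dynein regulatory complex of motile cilia, had gaps of 0.31 and 0.19 and lay below 8.45 on all arrays. Of 55 measured genes of motile cilium regulation and intraflagellar transport, 3 lay above all controls (5.45%, against 2.58% of all genes). Rabl2 and Ccdc65 were among them, and the median over the 55 was 0.08.

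Genes of actin and small GTPases differed by 1.02 to 1.76. Baiap2l1, an I-BAR protein that couples membranes to actin, measured 5.67 and 4.93 in empty vector, 5.01 and 4.604 in scramble, and 6.05, 6.83, 7.08 and 7.31 in shIRF7. Iqgap2, a scaffold that binds Rac1 and Cdc42, measured 3.51 and 5.72 in empty vector, 4.998 and 5.54 in scramble, and 7.35, 6.31, 5.84 and 6.93 in shIRF7. Array 1 was the highest for Iqgap2, and its SE of 0.52 was the largest of the 40 probe sets. Both genes lay below 8.45 on all arrays. Sh3bgrl3, a small thioredoxin-fold protein, and Elmod3, a GTPase activator of Arl2, differed by 1.08 and 1.02 with gaps of 0.44 and 0.15.

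Mnd1, a partner of Hop2 in meiotic recombination, ranged from 5.72 to 6.92 in the controls and from 7.05 to 7.36 in shIRF7, below 8.45 throughout. Of 34 measured genes of centromeres and the Fanconi pathway, Cenpx and Faap20 (0.99) lay above all controls (5.88%, against 2.58% of all genes). The median over the 34 was 0.18. Tmem205, a membrane protein linked to cisplatin resistance, measured 5.70 and 4.08 in empty vector, 5.72 and 4.19 in scramble, and 5.83, 5.86, 6.11 and 6.92 in shIRF7. Its replicate 1 controls lay close under shIRF7 array 1, and it too lay below 8.45 throughout.

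In all, 26 of the 40 probe sets had a mean shIRF7 value above the negative control level of 8.45, and 18 exceeded it on all 8 arrays. The 11 that exceeded it on none were those of Baiap2l1, Ccdc65, Cpt2, Dtx4, Galc, Iqgap2, Katnal2, Mnd1, Tmem205, Uckl1 and Zfp618. On chromosomes the 39 genes were spread over 19. Plppr2 and Tmem205 were the nearest, with 1 protein-coding gene between them in RefSeq, followed by Gamt and Mknk2 with 21 between.

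**Figure D3:**
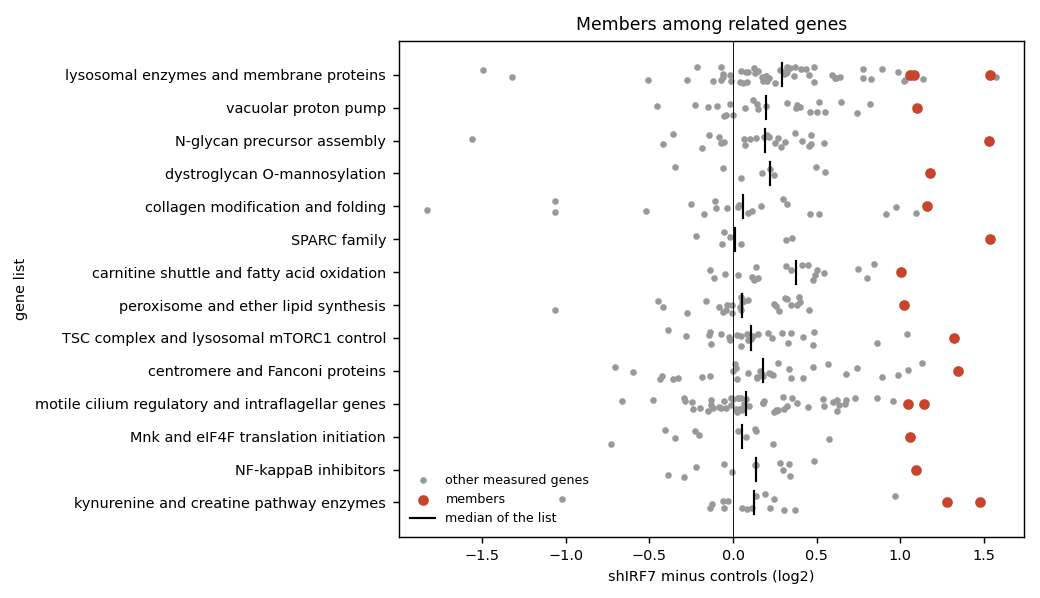
Difference between mean shIRF7 and mean control log2 value (horizontal axis) for the measured genes of 14 lists built around the 39 genes (rows): large red points are the chosen genes, small grey points the other genes of each list, and black ticks the median of the list. The red points lie at 1 or more by the rule, while the list medians lie between 0.01 (SPARC family) and 0.38 (carnitine shuttle and fatty acid oxidation).

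Of 30 broader lists that covered signalling, matrix, metabolism, transport and the cell cycle, 2 held any of the 39 genes: Kcnip3 was on that of ion channels and Tbc1d7 on that of small GTPase regulators. The lists do not hold every gene of their classes. Dtx4, a ubiquitin ligase, Mknk2, a kinase, and Sparcl1, a matrix-related protein, were on none of the 30. Absence from these lists therefore does not place a gene outside such functions. Interferon-response genes supplied none. Of 45 measured, 32 lay below all controls (71.1%, against 2.80% of all genes) and 0 above (against 2.58%), with a median of -1.47. Read the other way, the rule (all shIRF7 values below all controls by a mean of at least 1, at a control mean of at least 6) took 139 genes.

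Replicate numbers 1 and 2 exist in all 3 groups, and the medians of the negative control probe sets were 4.21, 4.26 and 4.18 in the arrays numbered 1 (empty vector, scramble, shIRF7) and 4.55, 4.56 and 4.56 in those numbered 2. Within replicate 1 the shIRF7 array exceeded the mean of its 2 controls by a median of 0.82 (0.11 to 3.10), and within replicate 2 by 1.34 (0.45 to 2.82). The difference was at least 1 in 12 probe sets within replicate 1 and in 27 within replicate 2. Uckl1, which lay below the negative control level of 8.45 on every array, was the only one of the 40 with at least 1 in both (1.35 and 1.48). Of all 19572 named probe sets, 11 (0.0562%) reached at least 1 in both.

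The replicates differed by gene. In 28 probe sets the difference was larger within replicate 2, as in Sparcl1 (0.11 against 2.82), Gamt (0.27 against 2.35) and Cln3 (0.28 against 2.27). In 12 it was larger within replicate 1, as in Iqgap2 (3.10 against 0.68), Plod2 (1.81 against 0.45) and Cenpx (1.71 against 0.98). Nkiras2 differed by 1.00 and 1.12. The controls differed by number too: both controls of replicate 2 lay below both of replicate 1 in 15 of the 40 probe sets and above them in 12, against 29.8% and 26.6% of all named probe sets. The part of the replicate number in the differences was not tested.

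**Figure D4:**
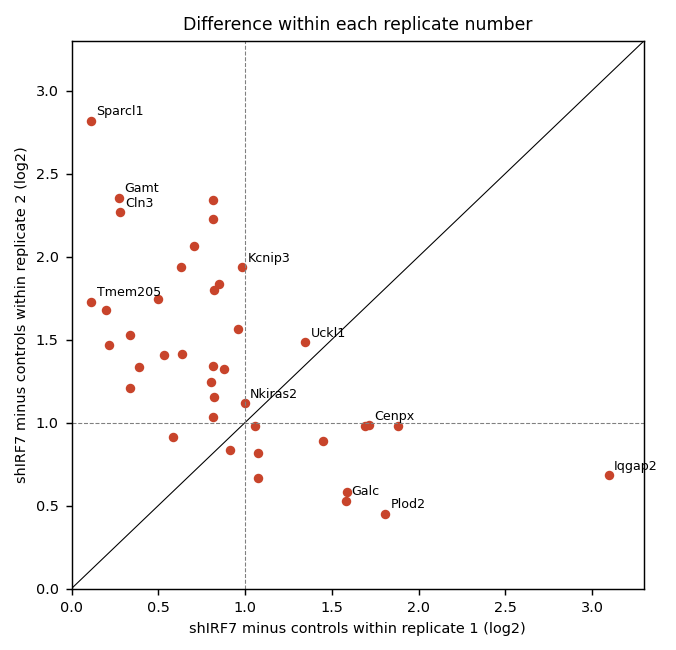
Difference in log2 value between the shIRF7 array and the mean of its 2 controls within replicate 1 (horizontal axis) and within replicate 2 (vertical axis), 1 point per probe set; the diagonal marks equal values and dashed lines mark 1. Points spread away from the diagonal on both sides, with 28 of 40 above it and Uckl1 the only point past both dashed lines.

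The comparison of scramble with empty vector did not enter the choice of genes except through the requirement that both lie below shIRF7. Over the 40 probe sets scramble minus empty vector had a median of -0.03 (-0.95 to 0.65), with 19 higher and 21 lower in scramble. The median size, regardless of sign, was 0.22, against 0.21 over all named probe sets with a mean shIRF7 value of at least 6. In limma over all genes, 0 of 19505 (0.0%) passed an adjusted p of 0.05 and 376 (1.93%) had an unadjusted p under 0.05, while 1 of the 39 genes (2.56%) did. That gene was Gnpat, lower in scramble by 0.81 (SE 0.30, limma unadjusted p = 0.0294, adjusted p = 1.0), with both scramble values below both empty vector values. Pqlc3 differed by -0.95 (limma unadjusted p = 0.0517). Within replicates 1 and 2, scramble minus empty vector was -0.96 and -0.65 for Gnpat, and -1.12 and -0.78 for Pqlc3, the same direction in both. The limma fit with the replicate number as a block called 0 of 19505 genes between the controls as well, with 229 at an unadjusted p under 0.05.

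**Figure D5:**
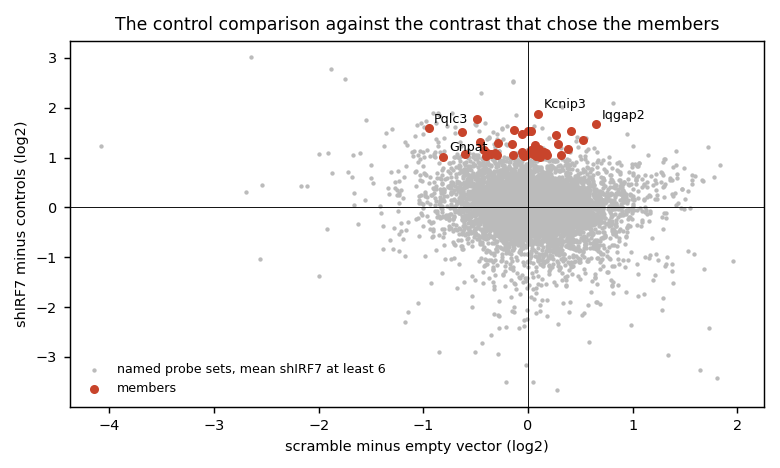
Scramble minus empty vector (horizontal axis, log2) against shIRF7 minus both controls (vertical axis, log2) for named probe sets with a mean shIRF7 value of at least 6 (small grey points) and the 40 chosen ones (red). The red points lie at 1 or more by the rule and spread on both sides of 0 horizontally, from -0.95 (Pqlc3) to 0.65 (Iqgap2).

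In shIRF7 against both controls, limma called 0 of 19505 genes higher (0.0%) at an adjusted p of 0.05, with 783 higher at an unadjusted p under 0.05, and eBayes with trend and robust fitting also called 0, with 670. None of the 39 genes was therefore called over all genes. This contrast chose the genes, so it adds nothing about them.

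Several genes lay close to the limits of the rule. Just inside the minimum difference were Cpt2 at 1.00, Gnpat at 1.02, Elmod3 at 1.02, Nsun3 at 1.04 and Tomm34 at 1.04, and just outside were Lmo7 at 0.997, Faap20 at 0.99, Cuedc2 at 0.98, Eef2kmt at 0.98 and P4ha3 at 0.97. By level, Tmem205 at 6.18 was just inside and Angptl1 at 5.80 just outside. By gap, Psrc1 at 0.03, Nt5dc2 at 0.04 and Mknk2 at 0.05 were just inside, while Mttp and Loxl3 at -0.004 and -0.008 were just outside. A further 140 named probe sets met the minimum difference and level but had overlapping groups.

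Leaving out an array cannot make the groups of a chosen gene overlap. A gene could therefore be lost only by falling under the minimum difference or level. The losses describe how near a gene lay to these limits and are no test. Applied without each array in turn, the rule kept 20 of the 39 genes every time (Plppr2 by 1 of its 2 probe sets) and lost 19 at least once, Cpt2 in 6 of 8 and Alkbh7, Ccdc65, Mknk2 and Nsun3 in 4 each. It took 198 probe sets without shIRF7 replicate 1 and 103 without empty vector replicate 1, against 40 with all arrays.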

How the data were processed

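RNA of 8 samples (2 empty vector, 2 scramble, 4 shIRF7) was measured on Affymetrix arrays. The deposited values are log2 values. Per the submitters' processing notes, the authors ran RMA in Affymetrix Expression Console (version 1.4.1.46). RMA corrects background, normalizes between arrays and compresses differences of dim probe sets. No genome build is named: it is not given in the sources consulted. Groups and replicate numbers came from the sample titles, and 0 sample columns were left unused.

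The platform annotation gave exactly 1 symbol for 19572 of 28846 probe sets, on which the genes were selected. The members and lists were chosen with earlier results of these data known, and 14 of the 44 gene lists were added after the members were found. Where a gene had several probe sets (55 genes), the brightest was fitted. The fit used limma 3.58.1 (R 4.3.3) with lmFit and eBayes (a mean per group, Benjamini-Hochberg over 19505 genes, threshold 0.05), after the fit had been tested on simulated data. Signal was set against the 5222 negative control probe sets. Values of all 8 arrays were to be printed for the 20 largest differences, the 10 widest gaps and members on 1 of the other 30 lists (Kcnip3 and Tbc1d7). Promoters were searched on both strands in RefSeq's table of GRCm38.p6.

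The replicate number was not used as a block in the main fit, because same-numbered arrays did not deviate together in every pair of groups: replicate 1 minus replicate 2 correlated over genes at 0.757 between empty vector and scramble but at -0.289 and -0.214 between these and shIRF7. Alternatives were other minimum differences, levels and gaps, cyclic loess, quantile normalization, a filter on dim genes, other variance models, pooled controls, a replicate block, and each array left out.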

Additional observations from a re-analysis of the deposited data

Results flagged for a closer look

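In 3 of the 40 probe sets, shIRF7 array 1 was set apart below the other 3 shIRF7 arrays: Tmem143 at 8.26, Rabl2 at 10.13 and Atp6ap2 at 11.93. In each, the distance of array 1 from the others was past Dixon's 95% limit for 4 values. Chance alone passes that limit in about 1 in 20 independent groups that were not selected. That share does not apply to these 40, which share the same arrays and were chosen by their lowest shIRF7 value. The same values chose the genes, so this is a description and no test. In all 3 genes array 1 still lay above every control, as the rule required. Among probe sets without a gene symbol, which the rule did not consider, 7 of 2634 met its 3 numeric conditions, with differences of 1.05 to 1.85.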

How the results depend on the processing

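The number of probe sets taken by the rule (40) was 79 at a minimum difference of 0.8, 9 at 1.5, 9 with a gap of at least 0.5, and 26 when the shIRF7 mean also had to exceed the 95th percentile of the negative controls, a choice made after seeing the data. It ranged from 38 to 198 when 1 array was left out. Cyclic loess gave 37 probe sets, 36 of them shared with the 40 (Cpt2, Gamt, Gnpat and Sparcl1 were lost), and quantile normalization gave 41, of which 38 were shared. Minimum levels of 5 and 7 gave 42 and 33.

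The median difference (1.15) became 1.55 at a minimum difference of 1.5. Under the other rules and normalizations it moved by less than the SD of the shIRF7 array medians (0.22). It ranged from 1.14 to 1.28 over the fits that left out 1 array. Each of these sets was chosen by a minimum difference, which bounds its median in advance, so the small moves are no test of stability. With the replicate number as a block (replicate block), which uses only replicates 1 and 2, the median difference was 1.09 over the same 40 probe sets. The rule applied within both replicates took 5 probe sets, with a median of 1.45, of which only Uckl1 was among the 40. The others were Pmvk, Rasl11b, Susd2 and Cldn1.

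In limma 0 genes were called higher in shIRF7, against 3 with both controls as 1 group (Grem1, Nkiras2 and Plppr2) and 0 to 8 with 1 array left out. The 8 came without shIRF7 replicate 1 and included Plppr2 and Rabl2. Scramble minus empty vector gave 0 calls in limma under every alternative run, with 30 to 2260 genes at an unadjusted p under 0.05 (2260 without empty vector replicate 2). Signal limits the dim genes: 14 of the 40 probe sets had a shIRF7 mean at or below 8.45.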
